A study of Sus scrofa with 20 samples.

Results

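Testis of Norsvin Landrace boars with high and with low sperm DNA fragmentation index (DFI) was compared by RNA sequencing, gene by gene over the whole range of effects. The members were the 9 Landrace samples of a series of 20, chosen by the breed and group given in the sample labels, and the 14519 of 21648 listed Ensembl genes above 1 CPM (reads of a gene scaled to a common library size) in at least 5 of these 9 libraries. The other 11 samples came from Duroc boars. DFI is the percentage of denatured sperm DNA, read by flow cytometry as red over red plus green acridine orange fluorescence. The low group held 5 boars with a labelled DFI of 0.62% to 1.7% (low 1 to low 5), and the high group 4 boars with 5.58% to 8.04% (high 1 to high 4). For some boars the labelled DFI differs slightly from the study's own list. All were artificial insemination boars picked from the extremes of DFI, each gave tissue of 1 testicle at slaughter, and no treatment is given in the labels, so the groups differ by selection. The 6 boars low 1, low 2 and high 1 to high 4 carried sample numbers between 325509 and 325516, whereas low 3, low 4 and low 5 carried numbers from 212051 to 224396. What these numbers stand for was not stated. There was 1 library per boar, so p-values measure the spread between boars, and the labels gave no age of a boar.

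Testis is built of tubules and the interstitium between them. In the seminiferous tubules, Sertoli cells carry spermatogonia through meiosis to round and then elongating spermatids, whose histones are replaced by transition proteins and then by protamines, which pack the DNA of the sperm head. Between the tubules lie Leydig cells, which turn cholesterol into androgens and make INSL3, together with vessels, fibroblasts, macrophages and the contractile myoid cells that wrap each tubule. In bulk tissue, fewer cells of a type and less RNA per cell cannot be told apart, and each value below is a share of all RNA counted.

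The 9 libraries held between 18086448 (high 1) and 51782156 counted reads, with overlapping totals in the low and high boars (p = 0.0873 in an exact two-sided permutation test on log2 totals, in which 0.00794 is the smallest possible p). TMM normalization factors lay between 0.976 and 1.02. The library of high 2 stood apart from the others. On the first principal component, which held 36.2% of the variance, it lay at -55.1 against -15.4 to 26.1 for the other 8 boars, and its mean correlation of log2 CPM with the other boars was 0.965, against 0.976 to 0.983. Results are therefore also given without high 2.

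By edgeR's quasi-likelihood F-test, 0 of 14519 genes (0%) had an adjusted p under 0.05, and the smallest adjusted p was 0.0972, shared by 161 genes. At an unadjusted p under 0.05, 1760 genes (12.1%) were higher and 657 (4.53%) lower in the high DFI group. The likelihood ratio test with tagwise dispersion, the test of the study's methods, is less strict with few replicates. With it, 746 genes (5.14%) rose and 21 genes (0.145%) fell at an adjusted p under 0.05. These are not the study's own counts, since it reported fewer genes for Landrace. DESeq2 called 828 genes, and limma voom with quality weights for the libraries called 1 gene. In the following, a gene is said to rise or fall only where it passed the likelihood ratio test. In 668 genes (4.6%) every high boar lay above every low boar in CPM, and in 253 genes (1.74%) below. When high 2 was left out, 192 of the same 14519 genes rose (1.32%) and 10 fell (0.0689%).

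The log2 fold change (logFC, high against low) was centred near 0 with a longer upper side. Its median was -0.01, the 5% and 95% points were -0.27 and 0.75, and the 1% and 99% points were -0.47 and 1.23. A logFC above 1 was found in 325 genes and one below -1 in 12, and 9 genes exceeded 2 while 0 lay below -2. The median was lower at higher levels of expression. The median logFC was 0.06 in the 5285 genes under 10 CPM, -0.01 in the 6820 genes from 10 to 100 CPM, -0.10 in the 2340 genes from 100 to 1000 CPM and -0.12 in the 74 genes above 1000 CPM. In these ranges every high boar lay above every low boar in 343, 284, 38 and 3 genes, and below in 42, 99, 104 and 8 genes. Calls did not follow the medians throughout, since above 1000 CPM 11 genes rose and 0 fell, against 64 and 10 from 100 to 1000 CPM. Genes that rose had a median level of 12.9 CPM, those that fell 68.5 CPM, and all tested genes 18.9 CPM.

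**Figure D1:**
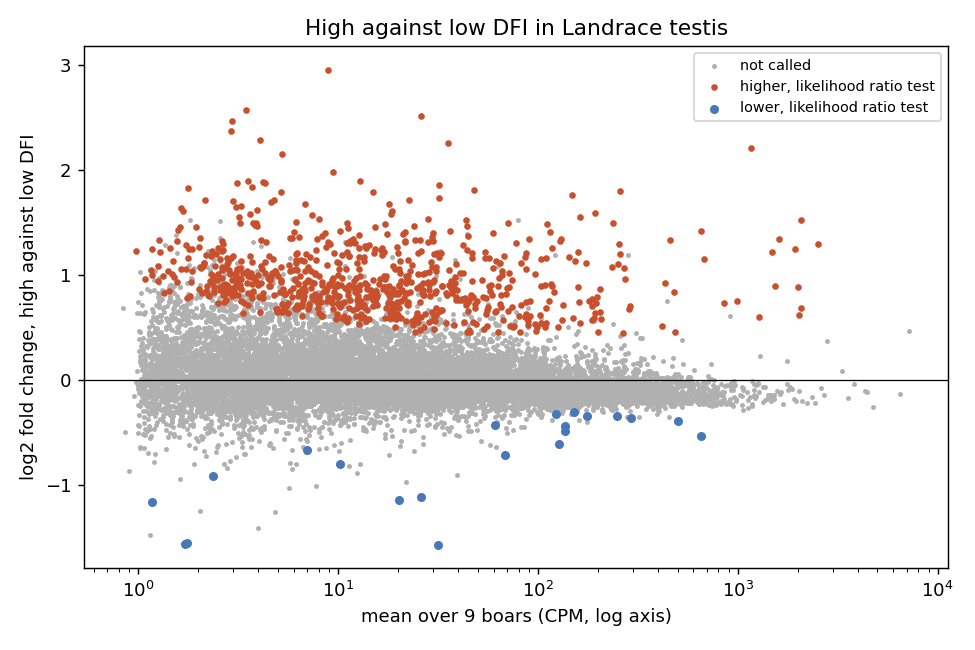
Each point is a gene, with its mean over 9 boars in CPM (log axis) against the logFC of high against low DFI. Of the coloured genes, called by the likelihood ratio test, 746 lie above 0 and spread up to a logFC of 2.95, and 21 lie below 0 and reach down to -1.57, while the grey cloud bends slightly below 0 at high expression.

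High 2 was often at the upper end. It was the highest of the 9 boars in 633 of the 746 genes that rose (84.9%), and in 23.9% of all genes. These shares are not alike, since genes called higher in the high group can hardly be topped by a low boar. High 1, high 3 and high 4 were highest in 56, 25 and 32 of the 746 genes. Over all genes they were highest in 1791, 919 and 1018, against 3464 for high 2. The median logFC of these 746 genes was 0.90 with high 2 and 0.65 without it. Of the 21 genes that fell, high 2 was the lowest boar in 7, and their median logFC was -0.61 with and -0.56 without it. Without high 2, 195 of the 767 called genes were still called, 8 of them lower.

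FAM13A, ABLIM1, ACTN4 and ARHGAP27 were among the genes that separated the groups with the smallest p. FAM13A, which carries a GTPase activating domain, was at 41.6, 35.6, 49.4, 32.9 and 42.4 CPM in low 1 to low 5 and 72.8, 109.6, 89.9 and 79.96 CPM in high 1 to high 4. The fold change (logFC 1.13, SE 0.14) had an adjusted p of 6.28e-10 in the likelihood ratio test and 1.92e-08 without high 2. ABLIM1, an actin-binding LIM protein, lay at 9.49 to 14.99 CPM in the low and 22.5 to 43.4 CPM in the high boars (logFC 1.39, adjusted p = 1.63e-07). The actin crosslinker ACTN4 was at 45.02, 47.96, 42.6, 58.9 and 49.4 CPM in low 1 to low 5 and 71.1, 84.7, 72.5 and 77.9 CPM in high 1 to high 4 (logFC 0.65, SE 0.10, adjusted p = 0.00022), a narrow and separate range in each group. ARHGAP27, another GTPase activator, had 9.82 to 11.9 against 15.0 to 20.3 CPM (logFC 0.69). All 4 genes rose, and without high 2 their adjusted p remained under 0.05 as well (likelihood ratio test, up to 0.0324).

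The other genes of this rank had diverse roles. ARSL, an arylsulfatase, was at 13.5, 19.9, 8.32, 17.7 and 14.3 CPM in low 1 to low 5 and 47.7, 80.4, 52.01 and 33.7 CPM in high 1 to high 4 (logFC 1.86, SE 0.27, adjusted p = 6.28e-10). SLC1A3, a glutamate transporter, was scarce in every boar, with 0.490 to 1.13 CPM in the low and 1.96 to 4.30 CPM in the high group (logFC 1.83). EFEMP2, an extracellular protein needed for elastic fibres, had 3.29 to 5.20 against 7.15 to 11.8 CPM, and the phosphatase CTDSPL 12.5 to 17.8 against 23.9 to 37.6 CPM. PRXL2A, a peroxiredoxin-like protein, reached 347 CPM in high 2 and 289 CPM in high 3 from 99.2 to 136 CPM in the low boars (logFC 1.12, adjusted p = 4.05e-07). The linker histone gene H1-3 lay at 1.35 to 1.91 against 2.67 to 7.41 CPM (logFC 1.55). CPT1A, which brings long-chain fatty acids into mitochondria, had 53.2, 59.6, 65.03, 65.2 and 61.6 CPM in the low and 84.4, 99.04, 83.1 and 81.8 CPM in the high boars. CWC15, a spliceosome component, was among the tightest of these genes, with 63.1 ± 6.21 CPM (SD, n = 5) in the low and 89.5 ± 2.49 CPM (SD, n = 4) in the high DFI group (logFC 0.50). All 8 genes rose, also without high 2.

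Several of the named genes with the largest logFC were high mainly in single boars or in pairs of boars. MX1 and IFI44, both induced by interferon, were at 24.2 and 46.1 CPM in high 2, where high 1, high 3 and high 4 had 2.95 to 6.15 and 4.54 to 8.31 CPM, and 0.813 to 2.77 and 1.53 to 5.12 CPM in the low boars. The logFC of MX1 was 2.15 with and 0.99 without high 2, and that of IFI44 1.98 and 0.56, and neither was called without it. COBLL1 was high in another pair, with 49.3 CPM in high 2 and 23.4 CPM in high 3 (logFC 1.90, 1.08 without high 2, when it was not called, adjusted p = 0.224). The matrix protease ADAMTS4 was high in high 2 and high 4 only, at 29.2 and 36.4 CPM, while high 1 with 0.720 CPM was below every low boar. TNFRSF12A, the receptor of the cytokine TWEAK, differed in this respect, since all high boars lay above the low ones, at 2.83, 10.03, 6.17 and 4.78 CPM against 1.04 to 2.44 CPM (logFC 1.90, 1.52 without high 2), and it was called in both fits.

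The genes that were lower in the high DFI group changed less, with a median logFC of -0.61 in those that fell. AMOTL1, an angiomotin family protein of cell junctions, was at 152, 143, 149, 156 and 153 CPM in low 1 to low 5 and 79.8, 87.5, 116 and 110.2 CPM in high 1 to high 4. The low boars lay within 143 and 156 CPM, and all high boars were below them (logFC -0.61, SE 0.11, adjusted p = 0.000305 in the likelihood ratio test and 0.00366 without high 2). The ubiquitin ligase TRIM13 had 189, 184, 210.1, 198 and 189 CPM in the low and 143, 155, 155 and 159.9 CPM in the high boars (logFC -0.34, SE 0.07, adjusted p = 0.0174). BTBD1, an adaptor of cullin ubiquitin ligases, lay at 136 to 181 against 99.9 to 129.7 CPM (logFC -0.48, adjusted p = 0.00421). TEX101, a germ cell surface glycoprotein, was at 172, 173, 149.6, 173 and 163 CPM in low 1 to low 5 and 129, 132, 145 and 129.7 CPM in high 1 to high 4 (logFC -0.31, SE 0.07, adjusted p = 0.0445, and 0.107 without high 2). TMC2, a transmembrane channel-like protein, was the scarcest of these 5, with 1.58 to 3.58 against 0.432 to 1.36 CPM (logFC -1.56). These 5 genes fell, and AMOTL1, TRIM13, BTBD1 and TMC2 were also called without high 2. In the annotation of a later pig assembly AMOTL1 lies next to CWC15, which rose, with 0 coding genes between them.

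The other 7 genes of the same rank separated the groups without passing a test over all genes. NRDC, a metalloendopeptidase, was at 942, 966, 959.8, 878 and 944 CPM in low 1 to low 5 and 819, 764, 818 and 802 CPM in high 1 to high 4 (logFC -0.23, SE 0.06, adjusted p = 0.266 in the likelihood ratio test). MNS1, a protein of the sperm flagellum, was at 418, 386, 426, 403 and 422 CPM in low 1 to low 5 and 377, 314, 316 and 347 CPM in high 1 to high 4 (logFC -0.28, SE 0.07, adjusted p = 0.0916). ACSBG2, a fatty acyl-CoA synthetase of testis, lay at 1117 to 1189 against 856 to 1001 CPM (logFC -0.29). The kinase WEE1, which restrains entry into mitosis and meiosis, had 63.3 to 70.9 against 52.3 to 57.6 CPM (logFC -0.28). TAPT1 varied little, with 85.3 ± 1.09 CPM (SD, n = 5) in the low and 72.5 ± 2.999 CPM (SD, n = 4) in the high DFI group (logFC -0.23). DCAF10 and REEP2 had a logFC of -0.33 and -0.25. Such small and even shifts were not called by either test, although no boar crossed to the other group.

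**Figure D2:**
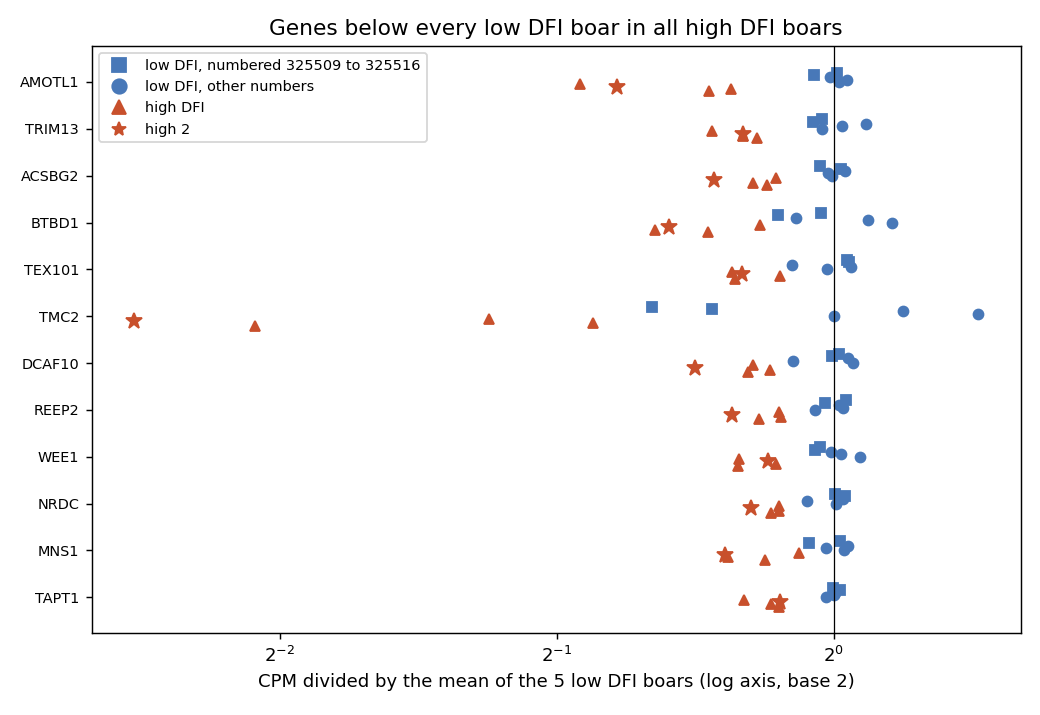
Each row is a gene of the 12 with the smallest p among those with all high boars below all low boars, and each symbol a boar, with its CPM divided by the mean of the 5 low boars (log axis, base 2). The high boars (triangles, star for high 2) form a column of their own to the left, far out for TMC2 and close to the low boars for NRDC and TAPT1.

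The remaining genes that fell were named after their values were seen, apart from ANKFN1, GRIK1, ADAMTS5 and ACTA1. SLC6A19, a transporter of neutral amino acids, was at 33.7, 32.95, 56.3, 19.9 and 28.3 CPM in low 1 to low 5 and 21.4, 11.8, 19.2 and 11.1 CPM in high 1 to high 4 (logFC -1.12, SE 0.30, adjusted p = 0.00271), with high 1 overlapping low 4. KIF1A, a kinesin motor, lay at 61.7 to 93.5 against 29.9 to 74.9 CPM (logFC -0.72), TEX2 at 683 to 849.5 against 392 to 690.1 CPM (logFC -0.54) and the Wnt receptor FZD3 at 56.4 to 83.4 against 43.7 to 61.8 CPM (logFC -0.43). MROH7 had 527 to 644 against 335 to 497 CPM (logFC -0.39), and CRABP2, which carries retinoic acid in the cell, 2.40 to 3.50 against 0.942 to 2.65 CPM (logFC -0.91). GRIK1, a kainate receptor subunit, and ADAMTS5, an aggrecan-cleaving protease, were close to the limit of the filter, at up to 3.74 and 1.98 CPM (logFC -1.57 and -1.17). The difference in ANKFN1 (logFC -1.57) rested on low 2 and low 3 with 83.4 and 93.3 CPM. The other 3 low boars, at 13.3 to 19.4 CPM, lay among the high boars, at 11.1 to 18.7 CPM. The last 6 of the 21 genes had no symbol.

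Markers of Leydig cells had the largest median logFC among the cell type lists. Of 15 marker genes listed, 9 were measured, and 8 of these rose, against 5.14% of all genes tested. Their median logFC was 1.22, with 0.88 without high 2 and -0.01 for all genes. The study had named CYP11A1 and FDXR from these samples, so the share of this list is not independent. CYP17A1, the enzyme that makes the androgen precursors, was at 1443, 1502, 664, 2020 and 2043 CPM in low 1 to low 5 and 2392, 6557, 3483 and 2645 CPM in high 1 to high 4 (logFC 1.30, SE 0.35, adjusted p = 0.00136 in the likelihood ratio test, 0.0439 without high 2). Every high boar lay above every low boar, in low 3 the level was lowest and in high 2 highest. INSL3, the peptide hormone of these cells, was at 1087, 1038, 465, 1855 and 1599 CPM in low 1 to low 5 and 2588, 4311, 2987 and 1550 CPM in high 1 to high 4 (logFC 1.24, SE 0.37, adjusted p = 0.00350), and here high 4 lay below low 4 and low 5. SCARB1, a receptor that takes up cholesterol, lay at 70.5 to 133 against 142 to 633 CPM (logFC 1.59, 0.95 without high 2).

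CYP11A1 and FDXR, which act in the first step of steroid synthesis, had a logFC of 1.50 and 1.22, LHCGR, the receptor of luteinizing hormone, 1.21, CYB5A, a cofactor of CYP17A1, 1.22, and the transcription factor NR5A1 0.73. HSD17B3, which completes testosterone, was the exception, with a logFC of -0.05. Summed over the 9 markers, the low boars had 3781, 3775, 1872, 5602 and 5273 CPM and the high boars 6736, 16165, 9742 and 6177 CPM, so the groups did not overlap, with the lowest sum in low 3. Without high 2, CYP11A1, CYP17A1, FDXR, LHCGR and SCARB1 were still called. When the number series was in the model, 4 of the 8 were called.

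Other abundant genes followed the same boars, and were named after their values were seen. SULT1C3, a sulfotransferase, was at 843, 921, 572, 1722 and 1555 CPM in low 1 to low 5 and 1780, 6582, 2592 and 1979 CPM in high 1 to high 4 (logFC 1.53, SE 0.42, adjusted p = 0.00133). The reductases DHRS4 and RDH12, which act on retinoids and steroids, lay at 397 to 1581 against 1209 to 4017 CPM (logFC 1.34) and 158 to 552 against 637 to 1644 CPM (logFC 1.42), and RDH11 at 232 to 559 against 513 to 1873 CPM (logFC 1.15). In all 4, high 2 was the highest boar and low 3 the lowest. A2M, a broad protease inhibitor, rose with another pattern, since low 4 with 2636 CPM lay among the high boars at 1619 to 3492 CPM (logFC 0.88, adjusted p = 0.0327, 0.135 without high 2).

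Markers of peritubular myoid and smooth muscle cells came next. All 9 measured members had a logFC above 0, with a median of 0.74 (0.59 without high 2), and 5 rose. CALD1, a regulator of actin and myosin, was at 21.9, 36.4, 21.2, 39.6 and 29.1 CPM in low 1 to low 5 and 44.4, 95.6, 83.96 and 49.1 CPM in high 1 to high 4 (logFC 1.21, SE 0.26, adjusted p = 0.000182). ACTA2, the actin of smooth muscle, was at 37.6, 40.6, 23.8, 69.3 and 51.9 CPM in low 1 to low 5 and 66.2, 117, 71.1 and 96.1 CPM in high 1 to high 4 (logFC 0.97, SE 0.27, adjusted p = 0.00306, 0.0600 without high 2). TAGLN, TPM2 and MYH11, all of the contractile apparatus, had a logFC of 0.82, 1.06 and 0.74. Only low 4 and high 1 overlapped for ACTA2, and the summed level did not overlap, with 156, 187, 134, 234 and 179.7 CPM in the low and 254, 406, 276 and 329 CPM in the high boars. Without high 2, CALD1 and TPM2 were still called, and with the number series in the model CALD1 and ACTA2 were. ACTA1, the actin of skeletal muscle, went the other way (logFC -1.14, SE 0.35, adjusted p = 0.00835), while TNNC2, the other measured gene of skeletal muscle, lay at 1.56 to 2.20 against 1.50 to 2.56 CPM.

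Of the 9 endothelial genes, all had a logFC above 0 (median 0.56, 0.30 without high 2) and 3 rose, namely the receptors TEK, KDR and ROBO4 (logFC 1.02, 0.96 and 0.88). TEK was at 2.47, 2.63, 3.01, 3.27 and 4.75 CPM in low 1 to low 5 and 5.87, 9.35, 5.76 and 5.14 CPM in high 1 to high 4 (adjusted p = 0.00389). The more abundant endothelial genes FLT1, EGFL7 and ENG shifted less, with a logFC of 0.05, 0.26 and 0.20, and the summed levels overlapped, at 125 to 165 CPM against 156 to 223 CPM. None of the 9 was called without high 2, while KDR and TEK were called with the number series in the model (likelihood ratio test, adjusted p = 0.00288 and 0.0117). The fibroblast genes DCN, LUM and FBN1 had a logFC of 0.38, 0.43 and 0.49, and of the 5 measured all lay above 0 with a median of 0.38, but 0 rose.

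Immune cell markers split within their lists. CSF1R, the receptor that sustains macrophages, was at 0.371, 0.581, 1.19, 1.03 and 0.603 CPM in low 1 to low 5 and 2.38, 3.28, 0.794 and 1.27 CPM in high 1 to high 4 (logFC 1.34, SE 0.44, adjusted p = 0.0209), and CD14 had a logFC of 1.25, and both rose. MRC1, which made up most of the summed macrophage level, lay at 49.9 to 71.01 against 52.3 to 66.4 CPM (logFC -0.08), and C1QA and ITGAM had a logFC of 0.60 and 0.11. The list of 7 had a median of 0.60, or 0.32 without high 2, and neither CSF1R nor CD14 was called without it. CSF1R was called with the number series in the model, and CD14 was not (likelihood ratio test, adjusted p = 0.0224 and 0.131). Of 3 lymphocyte genes 0 were called, with PTPRC at 5.10 and 7.82 CPM in high 1 and high 2 and 1.997 to 2.60 CPM in high 3 and high 4, inside the low range of 1.79 to 3.89 CPM. CD2 and CD4 had a logFC of 0.20 and 0.13.

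Sertoli cells are the somatic cells inside the tubule. Of 7 Sertoli cell genes 0 were called, the median logFC was -0.05, and the sums overlapped at 1824 to 2372 CPM against 1617 to 2203 CPM. CLU, WT1 and CLDN11 lay at 1553 to 2049 against 1341 to 1858, 28.96 to 34.8 against 26.6 to 34.1 and 191 to 243 against 175 to 245 CPM. TF, scarce here, was at 4.38 CPM in high 1 and at most 2.29 CPM elsewhere. Markers of blood and of ducts that a testis sample could carry along were measured too. HBB, the single measured gene of erythrocytes, ranged from 1.71 to 19.4 CPM with overlapping groups (logFC 0.72), 4 genes of rete testis and epididymis, EPCAM, CLDN4, CDH1 and ADAM7, had a median of 0.00 with ADAM7 at 18.5 to 44.4 against 17.6 to 38.2 CPM and EPCAM at 17.4 to 36.0 against 12.97 to 25.9 CPM, and no adipocyte gene passed the filter. The part of these tissues in the results was not tested.

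**Figure D3:**
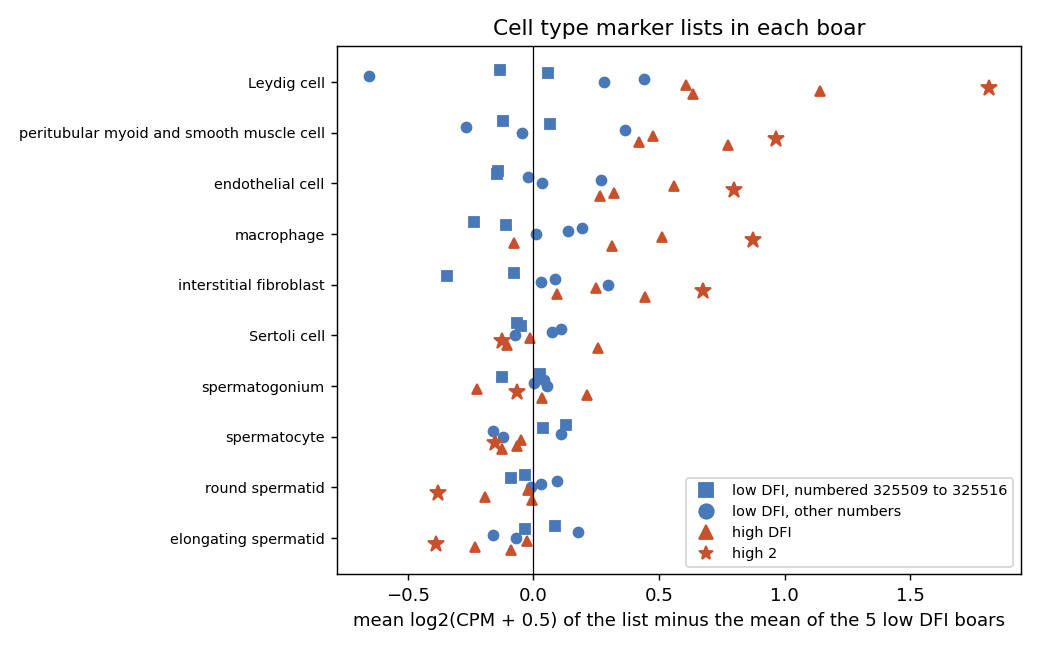
Each row is a cell type list and each symbol a boar, with the mean of log2(CPM + 0.5) over the measured members minus the mean of the 5 low boars. Leydig and myoid lists place all high boars to the right of the low boars, with high 2 (star) at 1.82 and 0.97 and low 3 at -0.66 and -0.27, whereas spermatid lists place high 2 at -0.38 and -0.39.

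Germ cell genes of late stages lay lower in the high DFI group by a small amount, with 0 members called by either test. All 14 elongating spermatid genes had a logFC below 0 (median -0.20, range -0.25 to -0.11), as had all 10 round spermatid genes (median -0.14) and 9 of 10 spermatocyte genes (median -0.15). These medians stand beside -0.10 for all genes from 100 to 1000 CPM and -0.12 for all above 1000 CPM, where most spermatid genes lie. In these ranges 20.1% and 21.6% of all genes had a logFC above 0. Without high 2 the 3 medians were -0.13, -0.06 and -0.13. Spermatogonium genes showed no common direction, with 2 of 5 above 0 and KIT, ID4, STRA8 and ZBTB16 at a logFC of -0.18, -0.08, 0.14 and 0.30.

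CRISP2, a protein of the acrosome and tail that made up most of the round spermatid sum, was at 5331, 4968, 5455, 4817 and 4968 CPM in low 1 to low 5 and 4692, 3788, 4205 and 4375 CPM in high 1 to high 4 (logFC -0.26, SE 0.07). All high boars lay below all low boars (exact two-sided permutation test, p = 0.00794, and 0.0627 adjusted over 79 genes tested in this way). The round spermatid sums did not overlap either, at 7416, 6869, 7652, 6863 and 7042 CPM in the low and 6711, 5408, 5998 and 6410 CPM in the high boars, whereas the mean of log2(CPM + 0.5), in which each gene weighs the same, overlapped. TSSK2, a spermatid kinase, and SPACA1, an acrosome membrane protein, lay at 478 to 604 against 394 to 510.2 and 455 to 544 against 408 to 513 CPM. AKAP4, the main scaffold of the fibrous sheath of the tail, had 2383, 2380, 2556, 2142 and 2451 CPM in the low and 2253, 1819, 1984 and 2118 CPM in the high boars (logFC -0.22, SE 0.08), with only high 1 inside the low range. Of the meiotic genes, SYCP3, a core of the synaptonemal complex, separated the groups at 252 to 297 against 227 to 249.6 CPM (logFC -0.19), while SYCP2 and HORMAD1 overlapped (logFC -0.07 and -0.11). SPO11, which makes the meiotic strand breaks, was the spermatocyte gene above 0 (logFC 0.49), with 21.1, 9.11, 7.02, 22.7 and 6.62 CPM in the low boars and a narrow 17.4 to 19.4 CPM in the high boars.

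Genes of sperm chromatin condensation bear on how tightly the DNA of the sperm is packed. All 10 measured members had a logFC below 0 (median -0.12, -0.08 without high 2), and 0 were called. PRM1 was at 5315, 4928, 4456, 3742 and 3955 CPM in low 1 to low 5 and 4672, 3185, 4280 and 4507 CPM in high 1 to high 4, and TNP1 at 5140, 4475, 5122, 3892 and 4400 CPM in low 1 to low 5 and 4756, 3320, 4305 and 4589 CPM in high 1 to high 4. Both groups overlapped broadly, with low 4 at the bottom of the low group and high 2 the lowest of all (logFC -0.11 and -0.12, -0.00451 and -0.02 without high 2). TNP2 lay at 1182 to 1912 against 1205 to 1608 CPM and PRM2 at 1074 to 1521 against 922 to 1167 CPM (logFC -0.17 and -0.25). Genes of the flagellar axoneme were alike, with 9 of 11 below 0 and a median of -0.11. TEKT2, a filament protein of the tail, was at 655 to 709.6 against 487 to 642 CPM without overlap (logFC -0.20), while SPAG6, TEKT3 and SPAG16 had a logFC of -0.11, -0.18 and -0.29.

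DNA repair genes lay near 0, with 8 of 20 above and 12 below, a median of -0.03 and 0 called. The most abundant was POLB, the polymerase of base excision repair, at 474, 444, 450.4, 402 and 477 CPM in low 1 to low 5 and 415, 373, 367 and 387 CPM in high 1 to high 4 (logFC -0.22, SE 0.07, adjusted p = 0.287 in the likelihood ratio test). XPC, which detects DNA lesions, was the largest in the other direction, at 22.6 to 32.5 against 31.6 to 46.2 CPM (logFC 0.39). BRCA1, of strand break repair, had a logFC of -0.11. The summed level of the 20 genes did not overlap, at 1462, 1448, 1511, 1425 and 1472 CPM in the low and 1405, 1355, 1354 and 1354 CPM in the high boars, a sum to which POLB gave the most. Apoptosis genes were as even, with 4 of 8 above 0 and a median of 0.02. BCL2L2, BAD and BAK1 had a logFC of -0.15, -0.13 and -0.01, and TNFRSF1A, a death receptor, 0.55, with 25.3 CPM in high 2 and 13.5 to 14.7 CPM in high 1, high 3 and high 4. None of the apoptosis genes was called.

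Extracellular matrix and lysosome genes rose in larger shares than genes at large, of which 5.14% rose. Of 24 matrix genes 13 rose, with a median logFC of 0.67 (0.62 without high 2, when 4 were called). Of these 24, 10 were called with the number series in the model. The matrix and lysosome lists overlap with genes that the study named from these samples. So do the Leydig cell, myoid, macrophage, complement and antioxidant lists. The direction of these lists is therefore not independent. FMOD, a collagen-binding proteoglycan, was at 3.51, 3.18, 2.33, 5.91 and 5.31 CPM in low 1 to low 5 and 14.2, 8.85, 5.49 and 6.82 CPM in high 1 to high 4 (logFC 1.11, SE 0.32, adjusted p = 0.00884), highest in high 1 rather than high 2. FN1, COL4A2, BGN and HSPG2, a cell adhesion protein, a basement membrane collagen and proteoglycans of matrix and basement membrane, had a logFC of 1.03, 1.01, 0.94 and 0.86. The most abundant members were not called. LAMB1 and LAMC1, laminin chains of the basement membrane, lay at 334 to 442 against 349 to 446 and 83.7 to 109.6 against 82.9 to 133 CPM (logFC 0.04 and 0.10), and LAMA4 had a logFC of 0.15. Markers of myoid cells (median logFC 0.74), endothelial cells (0.56) and fibroblasts (0.38) also lay higher, and their part in the matrix list was not tested.

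Of 21 lysosome genes, 20 had a logFC above 0 and 13 rose (median 0.65, 0.43 without high 2, when 6 were called). The count called was 12 with the number series in the model. The cathepsin CTSC was at 39.6, 43.1, 44.02, 59.9 and 48.6 CPM in low 1 to low 5 and 99.6, 214, 97.9 and 52.5 CPM in high 1 to high 4 (logFC 1.30, SE 0.32, adjusted p = 0.00036, 0.00502 without high 2). Further proteases CTSH, CTSL, CTSB and CTSS had a logFC of 1.26, 1.26, 1.15 and 1.10, NEU1, a sialidase, 1.28, and LIPA, which frees cholesterol from its esters, 1.12. PSAP, the precursor of sphingolipid activators, was at 333, 429.6, 377, 468 and 472 CPM in low 1 to low 5 and 528, 654, 570.2 and 531 CPM in high 1 to high 4 without overlap (logFC 0.46, SE 0.11, adjusted p = 0.0101). SCARB2, a membrane receptor of lysosomes, lay at 140.4 to 179 against 179 to 324 CPM (logFC 0.59). LAMP1, the most abundant member, lay at 562 to 608 against 545 to 648 CPM (logFC -0.000282). The summed levels did not overlap, at 1651, 1803, 1708, 1988 and 1912 CPM in the low and 2111, 3158, 2512 and 2089 CPM in the high boars. Leydig cell markers moved with this list, as given above, and their part in it was not tested.

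The summed interferon response was highest in high 2. All 12 had a logFC above 0 and 7 rose, with a median of 0.87, but without high 2 the median was 0.40 and 1 gene, the transcription factor IRF1, was called. The count called was 5 with the number series in the model. The sum was 133, 293, 91.5 and 99.04 CPM in the high and 82.5, 73.2, 85.3, 94.9 and 86.5 CPM in the low boars. STAT2, which carries the interferon signal to the nucleus, was at 8.38, 9.09, 11.3, 12.3 and 11.8 CPM in low 1 to low 5 and 15.3, 38.3, 13.5 and 14.1 CPM in high 1 to high 4 (logFC 0.95, 0.43 without high 2). High 1, high 3 and high 4 lay above every low boar, but much closer to them than high 2. In 5 of the 12 genes every high boar lay above every low boar, against 4.6% of all genes tested. USP18, which limits this response, was at 35.9 CPM in high 2 and 7.38 to 15.95 CPM in high 1, high 3 and high 4. Genes of antigen presentation showed the same boar more strongly. HLA-DRA, a class II chain, was at 10.5, 8.85, 35.6, 24.3 and 22.3 CPM in low 1 to low 5 and 40.99, 111, 17.9 and 19.95 CPM in high 1 to high 4, and SLA-DQB1 at 3.93 to 10.4 CPM in the low boars and 35.8 CPM in high 2, with 6.44 to 12.2 CPM in the others. Of the 5 measured, all lay above 0 with a median of 1.08, or 0.38 without high 2, and TAPBP, which loads class I molecules, rose (logFC 0.89, adjusted p = 0.0255, 0.507 without high 2). With the number series in the model TAPBP was not called (adjusted p = 0.240), whereas the other 4 were, among them HLA-DRA (0.0117) and SLA-DQB1 (0.0356), and the list median over the 6 boars of the series was 1.83. In both HLA-DRA and SLA-DQB1, low 1 and low 2 were the lowest boars. These genes vary between animals and have similar copies, so their counts are uncertain. Macrophage markers CSF1R and CD14 were highest in high 2 as well, and their part in this was not tested.

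Complement genes rose in part. C7, a component of the membrane attack complex, was at 0.989, 1.07, 1.24, 2.13 and 1.73 CPM in low 1 to low 5 and 5.59, 9.98, 3.04 and 2.47 CPM in high 1 to high 4 (logFC 1.87, SE 0.40, adjusted p = 0.00022, 0.00866 without high 2), and SERPING1, which inhibits the first complement proteases, at 14.5, 15.1, 17.4, 23.9 and 22.8 CPM in low 1 to low 5 and 29.7, 61.1, 28.4 and 32.0 CPM in high 1 to high 4 (logFC 1.01, SE 0.25, adjusted p = 0.00133). C4A rose at 107 to 182 against 176 to 328 CPM but was not called without high 2 (adjusted p = 0.0793), whereas C3 lay at 86.9 to 199 against 76.6 to 150.4 CPM (logFC -0.15). Of the 10 measured, 3 rose, against 5.14% of all genes tested, and 4 were called with the number series in the model. The list median was 0.55 (0.22 without high 2, when 2 were called).

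Cholesterol synthesis, which feeds steroid synthesis, was highest in high 2. Of 17 genes 15 had a logFC above 0 and 5 rose, among them MSMO1, IDI1, LSS and SC5D (logFC 1.55, 1.36, 1.16 and 1.16). The median was 0.54, and 0.21 without high 2, when 0 were called, as with the number series in the model. Leydig cell markers, with a median logFC of 1.22, were also highest in high 2, and their part in this list was not tested. MSMO1 was at 84.7, 62.8, 56.7, 108 and 127 CPM in low 1 to low 5 and 63.1, 642, 196 and 127 CPM in high 1 to high 4, and HMGCS1, an early step of the pathway, at 302, 297, 279, 417 and 409 CPM in low 1 to low 5 and 220.3, 1194, 459 and 412 CPM in high 1 to high 4. In both, high 1 was among the lowest boars. CYP51A1 and NSDHL lay at 468 to 511 against 467 to 598 and 329.8 to 421 against 313 to 351 CPM. The summed level was 2196, 5766, 3237 and 2993 CPM in the high and 2389, 2459, 2318, 2785 and 2726 CPM in the low boars.

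Antioxidant genes divided by member. PRDX2, a peroxide-reducing enzyme, was at 99.6, 79.8, 67.01, 102 and 110.2 CPM in low 1 to low 5 and 154, 307, 217 and 148 CPM in high 1 to high 4 without overlap (logFC 1.17, SE 0.22, adjusted p = 3.54e-06, 4.67e-05 without high 2), and its mitochondrial relative PRDX3 and the catalase CAT had a logFC of 1.07 and 0.91. All 3 rose, and PRDX2 and CAT were called without high 2 and also with the number series in the model. GPX4, which protects lipids and has a structural role in sperm, lay at 449 to 549 against 394 to 464 CPM (logFC -0.20), and PRDX5 and TXNRD1 had a logFC of -0.13 and -0.02. The list of 13 had a median of 0.08. Nuclear genes of oxidative phosphorylation, among them ATP5F1A, COX4I1 and NDUFA4 (logFC 0.17, -0.07 and 0.57), had the same median of 0.08 with 0 of 17 called. Of 8 ribosomal protein genes, RPS4X rose, at 309, 265, 216, 387 and 366 CPM in low 1 to low 5 and 534, 846, 613 and 353 CPM in high 1 to high 4 (logFC 0.93, SE 0.23, adjusted p = 0.00095), whereas RPS18 and RPL5 had a logFC of 0.06 and 0.16. Such genes have many near-identical copies in the genome, which makes their counts uncertain. Among 13 immediate early and heat shock genes, MYC and JUNB rose (logFC 1.13 and 1.03), but not without high 2 (adjusted p = 0.161 and 0.271) or with the number series in the model (adjusted p = 0.0583 and 0.319), while KLF4, DNAJB1 and HSPH1 had a logFC of -0.10, -0.02 and -0.05.

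**Figure D4:**
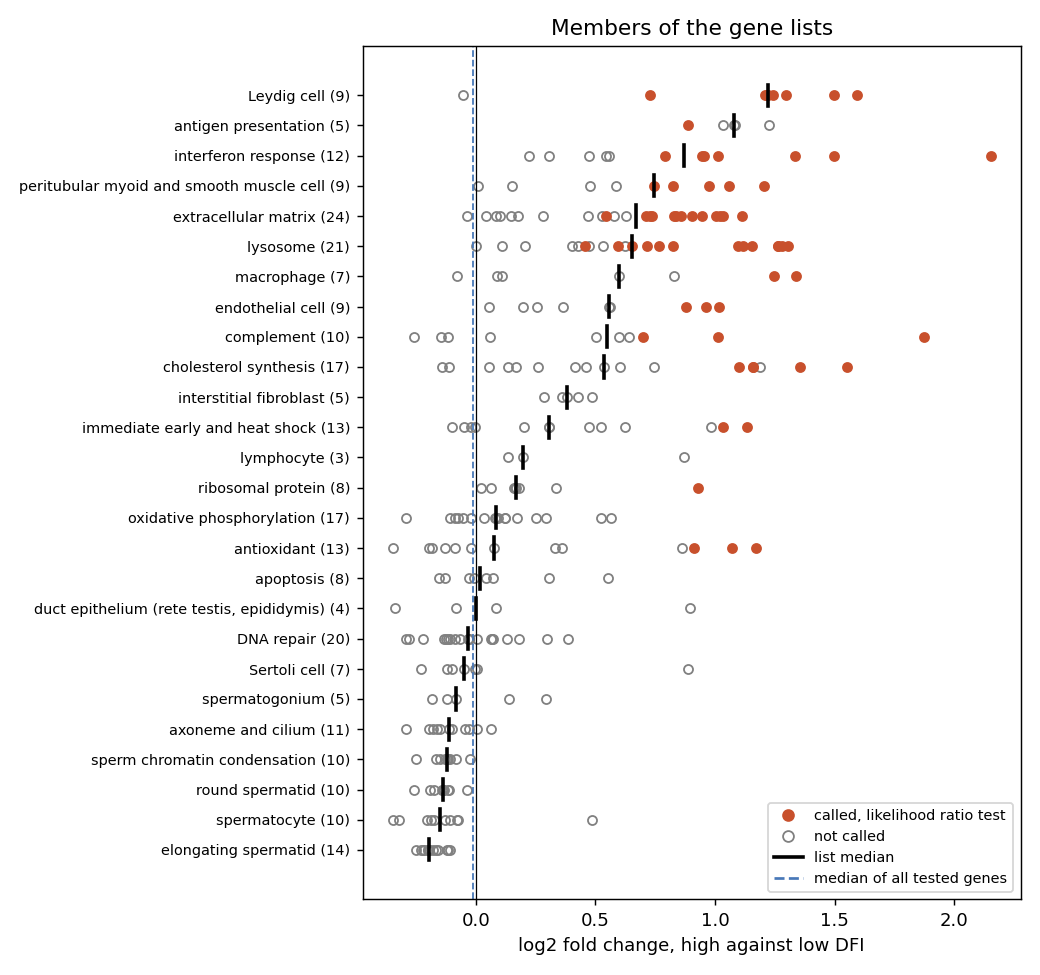
Each row is a gene list with its number of measured members, each circle the logFC of a member (filled where called by the likelihood ratio test), each black bar the list median and the dashed line the median of all genes, -0.01. Leydig and antigen presentation lists have medians above 1, while spermatid, spermatocyte and axoneme lists sit below 0 with no filled circle.

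The number series was compared within the low group, since every high boar had a number between 325509 and 325516. With the DFI group in the model, low 1 and low 2 were set against low 3, low 4 and low 5. Low 1 and low 2 also had the highest labelled DFI of the low group, 1.7% and 1.5%, against 0.62%, 0.82% and 0.73%. The number series and the DFI within the low group therefore cannot be told apart. By the quasi-likelihood F-test 1 gene (0.00689%) had an adjusted p under 0.05, and by the likelihood ratio test 9 genes (0.062%). SYTL3, a synaptotagmin-like protein of vesicle transport, was the gene called by both (adjusted p = 0.0124 and 3.61e-12). It was at 13.8, 13.99, 3.26, 3.32 and 2.55 CPM in low 1 to low 5 and 8.86, 9.94, 6.49 and 8.60 CPM in high 1 to high 4, so that all 6 boars of the series lay above the other 3. Its coefficient for the series was 2.19, and its logFC for DFI 0.20.

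C2orf61, named STPG4 in RefSeq, was not called, with 136, 122, 206, 185 and 183 CPM in the low and 131 to 168 CPM in the high boars (coefficient -0.57). ACTA1 was called by the likelihood ratio test here too, at 52.8, 29.5, 15.5, 14.1 and 21.04 CPM in the low and 10.3 to 13.1 CPM in the high boars, so that its difference between DFI groups was smaller against low 3, low 4 and low 5. CEL, a lipase, was at 0.173, 0.0930, 2.73, 2.09 and 1.29 CPM in the low boars (coefficient -3.91), and NXPH2 was also called (coefficient -3.84), both under 4 CPM in every boar. The logFC of NXPH2 for DFI was 0.27 over 9 boars and 3.45 over the 6 boars of the series, where low 1 and low 2 had 0.124 and 0.163 CPM. With the series in the model NXPH2 was called between DFI groups (likelihood ratio test, adjusted p = 0.000303). On the scale of log2(CPM + 0.5), the mean of the high boars lay nearer to low 1 and low 2 than to the other low boars in 6 of the 9 genes called (66.7%), in 3 of the 15 genes named (SYTL3, CEP290 and C2orf61) and in 5915 of all 14519 genes (40.7%). Among the 958 genes with an unadjusted p under 0.05 for the series (quasi-likelihood F-test) it did so in 286 (29.9%), a smaller share than over all genes.

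Genes higher in low 1 and low 2 included UQCRC1, a subunit of respiratory complex III, at 411, 368, 257, 270.0 and 263 CPM in the low and 236 to 285 CPM in the high boars, and SAP30, of a histone deacetylase complex, at 24.8, 33.1, 14.8, 17.7 and 17.3 and 13.8 to 16.6 CPM. CCDC39 and CEP290, of cilia and centrosomes, CCDC18 and the cyclophilin PPIL4 had coefficients of 0.52, 0.49, 0.55 and 0.55. Genes lower in these boars included SCARA5, a ferritin receptor, at 29.5, 25.3, 49.9, 41.8 and 37.04 CPM against 43.8 to 52.7 CPM in the high boars, the aminopeptidase LAP3 (coefficient -0.57), COQ8A, of coenzyme Q synthesis (-0.57), TMEM184B (-1.02) and NLRP9 (-1.67). These 11 genes were not called by either test. Both low 1 and low 2 lay above the other low boars in 1920 genes (13.2%) and below in 2365 (16.3%).

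**Figure D5:**
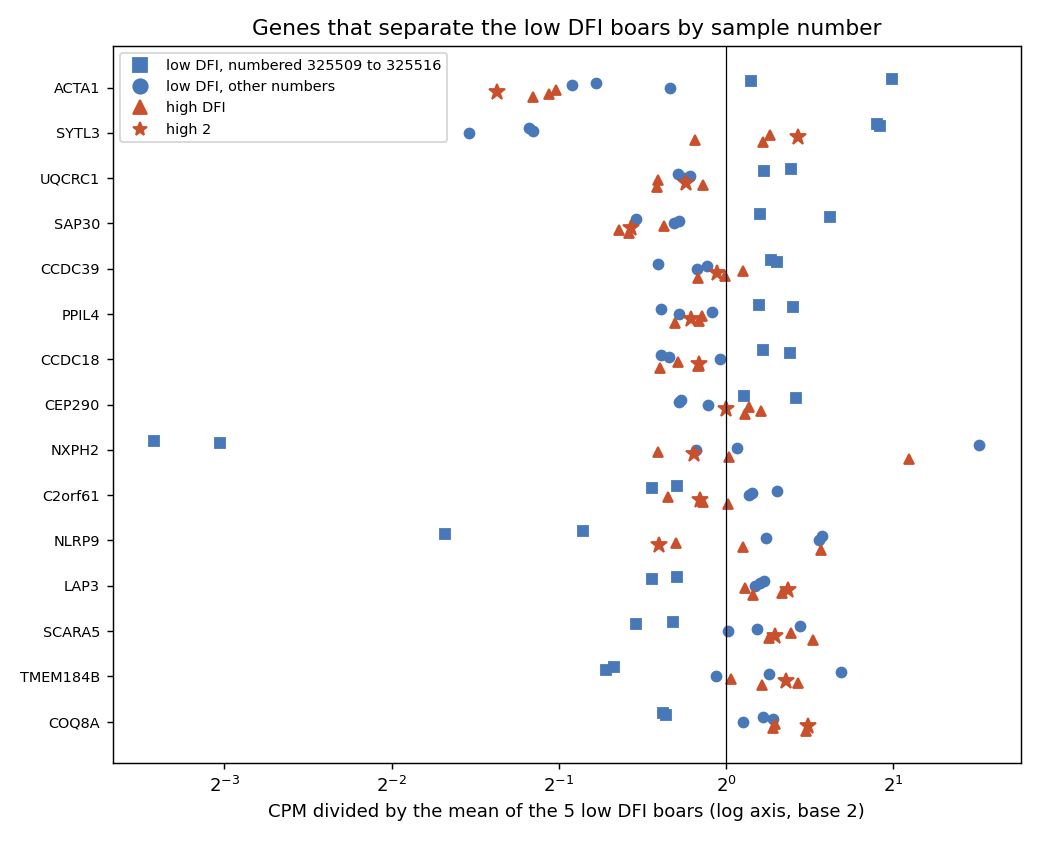
Each row is a gene that sets low 1 and low 2 (squares) apart from low 3 to low 5 (circles), and each symbol a boar, with its CPM divided by the mean of the 5 low boars (log axis, base 2). For SYTL3 the high boars (triangles, star for high 2) lie on the side of the squares, whereas for most other rows, such as ACTA1 and COQ8A, they lie with the circles or beyond them.

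The difference between DFI groups was then fitted with the number series in the model. The likelihood ratio test called 324 genes higher (2.23%) and 17 lower (0.117%), of which 265 had also been called without the series, 3 of them lower (AMOTL1, ACTA1 and FZD3). The quasi-likelihood F-test called 0 genes, and DESeq2 429. Genes that depended on which low boars were used include MMP13, a collagenase, at 0.148, 0.163, 0.257, 3.12 and 4.44 CPM in low 1 to low 5 and 8.59, 2.87, 3.45 and 0.0509 CPM in high 1 to high 4, whose logFC was 1.13 over 9 boars and 4.51 over the 6 boars of the series. FAM135B was at 3.73, 5.97, 4.36, 25.8 and 54.9 CPM in low 1 to low 5 and 19.3, 3.05, 53.7 and 24.7 CPM in high 1 to high 4 (logFC 0.41 and 2.38), with both groups split into low and high boars. Over the 6 boars the logFC was 1.19 for FAM13A, 1.68 for ARSL and 1.36 for CYP17A1, and with the series in the model FAM13A and ARSL were called while CYP17A1 was not (likelihood ratio test, adjusted p = 0.000137, 0.00216 and 0.0525).

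In Duroc, tested apart with other boars, the Landrace genes that rose had a median logFC of 0.53, and 735 of 743 tested lay above 0. Those that fell had a median of -0.17, with 16 of 19 below 0, while 73.7% of all genes shared a sign between breeds. Leydig cell markers had a Duroc median of 0.75 and elongating spermatid genes -0.29. AMOTL1, TEX101 and SLC6A19 were near 0 in Duroc (logFC -0.09, -0.05 and -0.10), as was CWC15 (-0.10). The test of the difference itself was the interaction of breed and DFI over 14636 genes. It called 0 genes by the quasi-likelihood F-test (364 at an unadjusted p under 0.05) and 2 by the likelihood ratio test. Among the genes kept in Landrace, the smallest adjusted p of the quasi-likelihood F-test was 0.939, so that by this test no difference between breeds was shown for them.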

How the data were processed

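RNA of 1 testis sample per boar was made into non-stranded libraries (TruSeq v2) and sequenced as 50 bp single reads. Per the submitters' processing notes and the study's methods, reads were checked with FastQC 0.10.1, mapped with TopHat2 2.0.12 to Sscrofa 10.2 (Ensembl 75) and handled with SAMtools 1.1. The authors counted reads per gene with HTSeq, ignoring strand, so that overlapping and antisense genes cannot be told apart, and deposited these raw counts. The lowest value is 1, and whether 0 was replaced or 1 added is not stated.

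Counts were analysed with edgeR 4.0.16 in R 4.3.3. Genes above 1 CPM in at least 5 of 9 libraries were kept, normalized by TMM and compared by the quasi-likelihood F-test with Benjamini-Hochberg adjustment over all 14519 genes and a threshold of 0.05, and by the likelihood ratio test with tagwise dispersion beside it. The number series was added as a covariate, and the interaction with breed was fitted over all 20 boars for genes above 1 CPM in at least 10. Single genes were compared by an exact permutation test, two-sided, with 4 and 5 boars, on log2(CPM + 0.5). The SE of a logFC is its size divided by the square root of the F statistic. CPM of a gene, used throughout, is its count per library total scaled by TMM. Library totals of 18086448 to 51782156 counts set the precision, and high 1 is the least deep. Replicate pairs differed by a chi-square per degree of freedom of 18.2 to 103, so none was a duplicate.

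Symbols came from a gene name table (9528 of the genes kept) and the study's gene lists (9609 in all). Of 461 entries in 29 gene lists, 284 were measured. Named were the 12 higher and 12 lower genes with separate groups and the smallest p, the 5 largest logFC in each direction at an unadjusted p under 0.05, the 8 genes in each direction that best set the low boars apart by number, 4 that differed most between 9 and 6 boars, per list the 3 most abundant members and the largest logFC, ACTA1 and ACTA2. List members that were called, and genes said to be so, were added after their values were seen. A few genes are not reported here by name but stay in the counts. Members and lists were chosen with earlier results of these data known. Alternatives were DESeq2 1.42.0, limma 3.58.1 voom with quality weights for the libraries, RLE, library totals, other filters and thresholds, values of 1 set to 0, DFI as a covariate, subsets of boars and each boar left out. Repeats of the likelihood ratio test under these settings, and library totals, were added after seeing the data.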

Additional observations from a re-analysis of the deposited data

Results flagged for a closer look

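Within the low and the high group of each gene or list sum, 160 groups of 4 or 5 boars were searched for a boar whose gap to its nearest neighbour exceeded Dixon's 95% critical value. Chance alone flags about 5% of groups. The 6 found are fewer than that, so the search sets none of them apart from chance. High 2 stood above the other high boars for CPT1A, at 99.04 CPM against 84.4 CPM in the nearest boar, for MX1, at 24.2 against 6.15 CPM, and for IFI44, at 46.1 against 8.31 CPM. Low 4 stood below the other low boars for NRDC, at 878 CPM against 942 CPM. The summed macrophage list of low 1 was 60.1 CPM, with 77.8 CPM in the nearest low boar. The summed DNA repair list of high 1 was 1405 CPM, while the other high boars lay at 1354 to 1355 CPM.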

How the results depend on the processing

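Under the quasi-likelihood F-test the count of genes called between DFI groups was 0, and 0 as well without each boar. It was 767 with the likelihood ratio test, 828 with DESeq2, 189 at an adjusted p under 0.10, 321 in a joint fit of all 20 boars, 292 with the likelihood ratio test in the 6 boars of the number series, and 1 each with no filter, with 10 counts in every library and with quality-weighted limma voom. The 746 genes that rose by the likelihood ratio test became 190 to 893 with each boar left out (190 without high 2 after filtering anew, 410 without low 1 and 463 without low 3), 324 with the number series in the model and 276 in the 6 boars. The 21 that fell became 11 to 50 (11 without low 1 or high 2, 50 without high 1) and 46 at an adjusted p under 0.10. For the number series, the single gene became 9 with the likelihood ratio test, 21 with DESeq2, 0 and 73 in the 5 low boars with either edgeR test, and 0 to 2 with each boar left out. With the series in the model the count for DFI went from 0 to 341 with the likelihood ratio test, 429 with DESeq2 and 0 to 1 with each boar left out. The interaction count went from 0 to 2 with the likelihood ratio test. The cause of these moves was not tested. No paired analysis was possible because the labels give no replicate numbers that pair boars. Of 212 named genes, 186 kept the sign of their logFC under all 13 alternatives. The other 26 had a main logFC of at most 0.65 in size. With each boar left out, the logFC ranged from -0.0220 to 0.56 for SYTL3, from -0.12 to 0.0578 for CCDC39, from -0.17 to 1.15 for NXPH2, from -0.18 to 0.23 for NLRP9, from -0.28 to 1.34 for FAM135B, from -0.0770 to 0.0806 for CLDN11, from -0.0303 to 0.15 for FLT1, from -0.28 to 0.28 for CD4, from -0.0410 to 0.21 for TNNC2, from -0.24 to 0.0945 for ADAM7, from -0.0349 to 0.15 for CLDN4, from -0.13 to 0.10 for BAK1, from -0.0199 to 0.10 for LAMB1, from -0.0408 to 0.19 for LAMC1, from -0.33 to 0.11 for C3, from -0.16 to 0.81 for USP18, from -0.0655 to 0.0449 for DNAJB1, from -0.0912 to 0.0107 for HSPH1, from -0.0379 to 0.0928 for CYP51A1, from -0.0552 to 0.0317 for LAMP1, from -0.0843 to 0.0574 for TXNRD1. In the 6 boars it was -0.72 for SYTL3, -0.16 for CEP290, 0.22 for C2orf61, 2.59 for CEL, 0.16 for CLDN11, -0.0717 for FLT1, 0.00535 for MRC1, 0.17 for ADAM7, -0.0147 for CLDN4, 0.21 for C3, -0.11 for RPS18. With library totals it was 0.0138 for CLDN11, 0.0115 for BAK1, 0.00207 for DNAJB1, 0.0183 for LAMP1. List medians changed sign for Sertoli cell, spermatogonium, duct epithelium, DNA repair and apoptosis lists, whose medians were -0.05, -0.08, 0.00, -0.03 and 0.02. Depth limits genes near 1 CPM in high 1, where the library is smallest.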

Other observations

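Genes encoded in mitochondrial DNA lay higher in the high DFI group, which was noticed after the values were seen. All 13 protein-coding genes had a logFC above 0 (median 0.67, range 0.37 to 0.89), and 10 were called by the likelihood ratio test, while 0 of 17 listed nuclear genes of oxidative phosphorylation were. COX2, a subunit of cytochrome oxidase, was at 1402, 2215, 1188, 1713 and 1609 CPM in low 1 to low 5 and 2671, 2954, 2116 and 2676 CPM in high 1 to high 4 (logFC 0.68, SE 0.16, adjusted p = 0.00302). CYTB, of complex III, was at 917, 1454, 718, 1115 and 1020 CPM in low 1 to low 5 and 1474, 1813, 1305 and 1736 CPM in high 1 to high 4 (logFC 0.60, SE 0.18, adjusted p = 0.0152). The sum of the 13 genes was 14522, 22647, 13404, 19629 and 15135 CPM in low 1 to low 5 and 28378, 26751, 20003 and 26398 CPM in high 1 to high 4, so that low 2 lay above high 3 and the highest boar was high 1, not high 2. Without high 2 the median logFC was 0.61 and 2 genes were called, and with the number series in the model 0 were. In Duroc all 13 had a logFC above 0 (median 0.40) and 0 were called. Several of these genes overlap or abut on the mitochondrial genome, so that their reads are not independent.

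Some genes were near absent in certain boars of both groups. PPP1R11, an inhibitor of protein phosphatase 1, was at 6.43, 7.51, 12.8, 0.0659 and 5.45 CPM in low 1 to low 5 and 6.26, 0.0682, 4.90 and 0.0254 CPM in high 1 to high 4. NHERF4, a scaffold protein, was at 3.68, 1.84, 4.43, 0.0220 and 3.91 CPM in low 1 to low 5 and 0.222, 0.136, 2.45 and 1.63 CPM in high 1 to high 4, and ATP2C2, a calcium and manganese pump, at 6.996, 0.442, 7.25, 14.2 and 7.47 CPM in low 1 to low 5 and 6.54, 0.819, 6.60 and 0.611 CPM in high 1 to high 4. KRT74, a keratin, was at 1.48, 0.0697, 2.78, 2.20 and 1.36 CPM in low 1 to low 5 and 1.11, 0.0682, 0.0454 and 1.25 CPM in high 1 to high 4. The boars with low values were not the same for all of these genes, and none was called between the DFI groups (adjusted p = 0.739, 0.533, 0.611 and 0.471 in the likelihood ratio test), although each had a logFC below -1. These genes were also chosen after their values were seen.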
